A study of Mus musculus with 6 samples.

Results

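The 10 genes described here encode the enzymes that make melanin and the proteins that build, load and move the melanosome. They were taken from the B16F10 gene table by their symbols (Tyr, Tyrp1, Dct, Pmel, Mlana, Slc45a2, Oca2, Slc24a5, Gpr143 and Mlph), and each of the 10 occurred once among the 27179 genes of the table. B16F10 is an established, pigmented line of mouse melanoma cells from the C57BL/6 strain, labelled wild type. RNA was sequenced from 3 samples cultured for 6 h with 0.01% ozonated olive oil (OZO) and from 3 samples cultured for 6 h with 0.01% olive oil without ozone (OLO). The study describes the samples of a group as independent experiments, and the labels only number them. The level of each gene is the authors' mean log2 CPM, the reads of a gene scaled to a common library total, taken over both groups together. It stands for neither group alone and carries no measure of spread, and the difference between OZO and OLO is not analysed here.

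Melanin is made inside the melanosome, a relative of the lysosome. Tyrosinase oxidizes tyrosine and starts the pathway, and the related proteins TYRP1 and DCT act on later intermediates of dark eumelanin. PMEL forms the amyloid fibrils on which melanin is laid down, transporters and channels set the pH and ion content of the organelle, and an adaptor complex ties the finished melanosome to actin. In melanocytes the factor MITF, which binds short E-box sequences, drives many of these genes.

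Depth was read from the averages themselves. A total of 6025 genes shared the lowest average, the value that limma-voom gives a gene without reads, from which the scaled library size follows as 19641946 reads (geometric mean). At this depth 1 CPM stood for 19.6 reads in a library. At least 1 read was counted for 21154 genes (77.8%), and 11878 genes (43.7% of the table) reached 1 CPM. The totals of single libraries are unknown.

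Of the 10 genes, 9 were above 1 CPM and 1, Oca2, lay just below it at 0.924 CPM. The median of the 10 was 8.59 on the log2 CPM scale, against 1.45 for the 21154 genes with reads. Summed, the 10 genes took 17677 CPM, or 1.82% of the CPM summed over all genes, and Dct, Tyrp1 and Pmel held 90.2% of that sum. In the plot of all genes with reads, 9 members lie in the upper part of the distribution, with Dct and Tyrp1 at its far end. Oca2 lies below the median of 1.45.

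**Figure D1:**
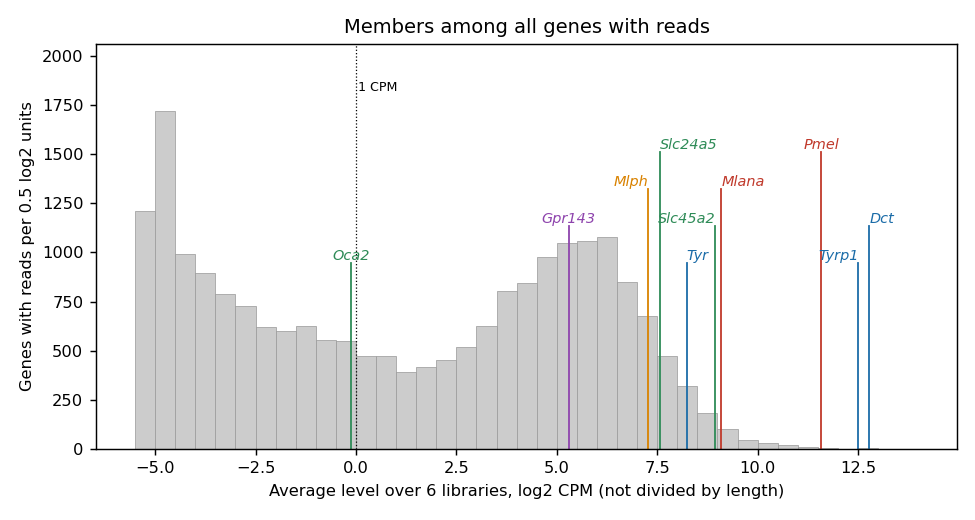
Histogram of the average log2 CPM over 6 libraries (horizontal axis) of the 21154 genes with reads, in bins of 0.5, with a coloured line at the level of each of the 10 members. Dct (12.78), Tyrp1 (12.51) and Pmel (11.58) lie in the sparse upper tail, Gpr143 (5.30) near the main peak of expressed genes, and Oca2 (-0.11) next to the dotted line at 1 CPM.

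For comparison between genes, each CPM was divided by the summed length of all annotated exons of the gene, counted once. On this scale, CPM per kb, 5 of the 10 genes were in the top 1% of the 19227 genes with reads and a known length, 6 in the top 5% and 8 in the top 10%. Tyrp1 ranked 5, Pmel 11, Dct 14 and Mlana 36. The median of the 10 on the log2 CPM per kb scale was 6.86, against 0.55 for the 19227 genes. From Tyrp1 to Oca2 the levels spanned 13.11 log2 units, and without Oca2 they spanned 6.71.

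The 3 enzymes of melanin synthesis were far from equal. Tyrp1, which stabilizes tyrosinase and acts late in eumelanin synthesis, had 5832 CPM, or 2062 CPM per kb. Dct, which converts dopachrome, had 7052 CPM, rank 3 of all genes with reads, and 1196 CPM per kb. Tyr, the enzyme that starts the pathway and limits its rate, had 301 CPM, or 42.4 CPM per kb, and ranked 1013. Per kb, Tyrp1 was 48.7-fold and Dct 28.2-fold above Tyr. These folds moved with the length: Tyrp1 was 19.4-fold above Tyr without division by length, and Dct 64.2-fold above it with the transcript of the longest coding sequence. These averages rested on about 114556 reads per library for Tyrp1, 138508 for Dct and 5916 for Tyr, so counting error is small beside the gap, whereas the spread between samples could not be examined.

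The place of Dct depends on the length used. Its 4 annotated transcripts cover 5895 bases of exon together, but the transcript with the longest coding sequence has 2202 bases. With that length Dct reached 3202 CPM per kb and stood first, ahead of Tyrp1 at 2144 and Pmel at 1439. Tyrp1, Pmel and Dct were the upper 3 under every length tried. Which of the 3 was highest was not settled by these averages.

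**Figure D2:**
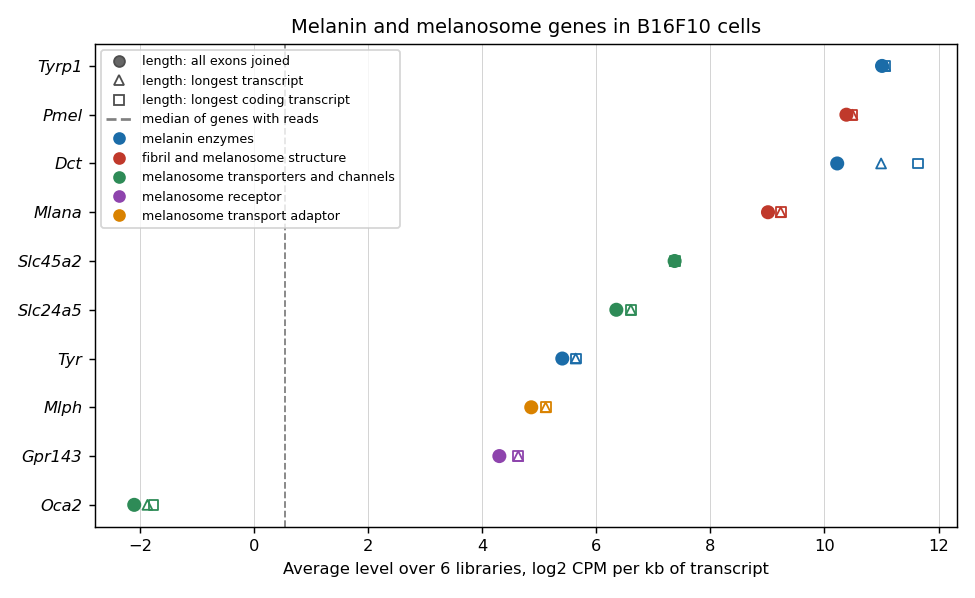
Average level over 6 libraries of each member in log2 CPM per kb (horizontal axis), with the length taken as all exons joined (filled circles), as the longest transcript (triangles) or as the transcript with the longest coding sequence (squares); colours give the role. Tyrp1, Pmel, Dct and Mlana lie at or above 9.01 on every length, Oca2 alone lies below the dashed median of all genes (0.55), and Dct moves most between lengths, from 10.22 to 11.64.

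The upstream sequences of the enzymes are shown because Tyr stood far below Tyrp1 and Dct in level. All 3 share 1 short motif, and a link between motif and level was not tested. RefSeq promoter windows (GRCm38.p6, the same build as mm10) of 250 bases before to 50 bases after a start were matched for 6 of the 10 members: Tyr, Tyrp1, Dct, Oca2, Slc24a5 and Mlph. The 250 bases before the start are printed 5′ to 3′ in the direction of the gene, with E-box letters CATGTG (read as CACATG where the motif lies on the other strand) in capitals, together with the flanking base of the longer form TCATGTG where it is present. Tyr lies at chr7:87493513-87493762 on the minus strand, Tyrp1 at chr4:80833963-80834212 on the plus strand, Dct at chr14:118052247-118052496 on the minus strand and Oca2, the member with the lowest level, at chr7:56239509-56239758 on the plus strand.
Tyr: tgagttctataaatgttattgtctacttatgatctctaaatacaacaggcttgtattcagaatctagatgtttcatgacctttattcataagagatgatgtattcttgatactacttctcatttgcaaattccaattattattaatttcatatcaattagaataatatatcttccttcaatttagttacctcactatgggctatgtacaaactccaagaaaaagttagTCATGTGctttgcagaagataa
Tyrp1: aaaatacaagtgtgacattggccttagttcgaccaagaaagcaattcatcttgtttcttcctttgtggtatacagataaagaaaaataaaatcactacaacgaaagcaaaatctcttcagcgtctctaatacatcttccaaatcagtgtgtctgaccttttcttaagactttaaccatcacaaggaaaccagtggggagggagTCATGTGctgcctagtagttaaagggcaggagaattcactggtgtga
Dct: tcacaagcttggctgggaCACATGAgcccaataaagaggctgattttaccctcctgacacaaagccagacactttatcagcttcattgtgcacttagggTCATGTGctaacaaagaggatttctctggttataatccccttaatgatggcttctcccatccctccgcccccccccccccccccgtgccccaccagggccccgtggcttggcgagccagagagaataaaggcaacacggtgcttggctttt
Oca2: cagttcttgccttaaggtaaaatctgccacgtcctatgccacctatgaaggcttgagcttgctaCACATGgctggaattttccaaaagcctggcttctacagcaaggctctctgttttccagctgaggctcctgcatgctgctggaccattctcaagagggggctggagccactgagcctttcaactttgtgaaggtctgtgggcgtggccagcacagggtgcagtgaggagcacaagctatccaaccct

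The letters CATGTG, searched on both strands, occurred in 5 of the 6 windows, and in 14.2% of all 32851 RefSeq windows of the same length. The longer form TCATGTG, which contains CATGTG, occurred in 4 of the 6 (Tyr, Tyrp1, Dct and Slc24a5) and in 3.77% of all windows. In Tyr it began 22 bases before the start and in Tyrp1 47 bases before the RefSeq start, both on the strand of the gene. This RefSeq start of Tyrp1 (chr4:80834213) lies downstream of its GENCODE M21 start (chr4:80834123). On the GENCODE model the motif of Tyrp1 and the end of its printed sequence therefore lie inside the gene. Dct held TCATGTG at 2 places, 151 bases before the start on the strand of the gene and 232 bases before it on the other strand. In Slc24a5 it lay on the other strand, 13 bases before the start. Oca2 had CATGTG on the other strand, 186 bases before the start and without the flanking base. Mlph had no CATGTG in its window but held the palindromic E-box CACGTG 48 bases before the start, letters found in 7.15% of all windows. A match of letters is not a binding site, and no binding was measured.

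**Figure D3:**
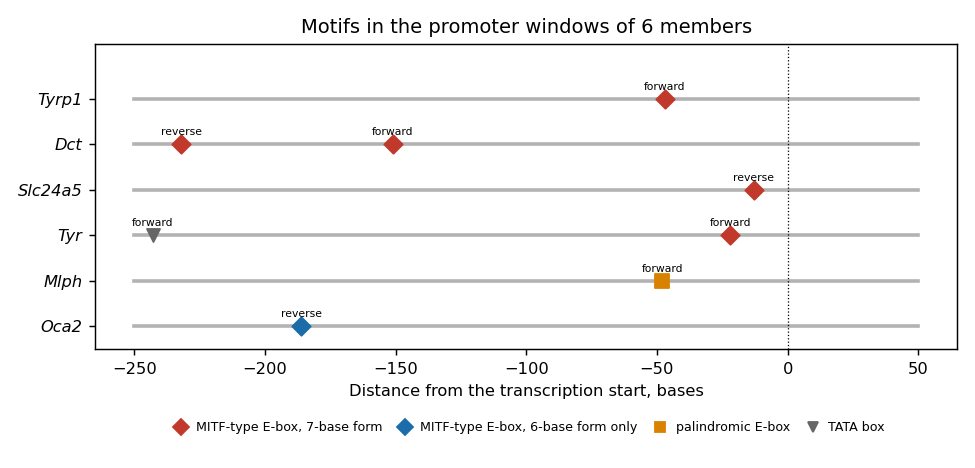
Positions of E-boxes and of TATAAA in the promoter windows of 6 members, as distance in bases from the transcription start (horizontal axis, 250 before to 50 after); diamonds mark CATGTG in its 7-base form (red) or its 6-base form alone (blue), the square marks CACGTG in Mlph, and the small words give the strand. Tyr, Tyrp1, Slc24a5 and Mlph carry an E-box within 48 bases of the RefSeq start, whereas those of Dct begin 151 and 232 bases before it and that of Oca2 186 bases before it. For Tyrp1 the GENCODE M21 start lies upstream of this E-box.

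Base composition differed widely among these windows. Tyr had 31% G and C and 0 CpG pairs, Tyrp1 42.3% and 3 pairs, and Mlph 64.3% and 15 pairs. Relative to the number expected from their C and G content, CpG pairs had a median ratio of 0.230 in the 6 members and 0.384 over all windows, and Mlph was the highest member at 0.485. None of the 6 reached 0.6, a common limit for CpG islands, which 35.8% of all windows did. TATAAA was found in the window of Tyr only among the 6, 243 bases before the start, and in 13.6% of all windows.

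Among the structural proteins, Pmel stood close to the leading enzymes. PMEL is cleaved into the fibrils of the young melanosome, and its gene had 3066 CPM, or 1338 CPM per kb. Mlana encodes MART-1, a small membrane protein that helps PMEL mature. It had 545 CPM and 516 CPM per kb, and ranked 185 by CPM but 36 per kb, since its exons cover only 1057 bases. Pmel was 2.59-fold above Mlana per kb and 5.62-fold by CPM. Of the exon bases of Pmel, 4.58% are also exon of Dgka and 1.48% of Cdk2, both on the opposite strand.

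The 3 transporters and channels differed more among themselves than the 3 enzymes or the 2 structural genes did. Slc45a2, a transporter that helps keep the melanosome near neutral pH, had 495 CPM, or 166 CPM per kb, and ranked 173. Slc24a5, a potassium-dependent sodium-calcium exchanger of pigment cells, had 190.4 CPM and 81.7 CPM per kb. Oca2, a chloride channel that also raises melanosome pH, had 0.924 CPM and 0.233 CPM per kb, a level above that of only 36.7% of the genes with reads and a length. It rested on about 18.2 reads per library, against 3739 for Slc24a5 and 9721 for Slc45a2. Per kb, Slc45a2 was 711-fold and Slc24a5 350-fold above Oca2 (535-fold and 206-fold by CPM).

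Slc24a5 shares more of its length with another gene than any other member. Exons of Myef2, on the opposite strand, cover 39.5% of its exon bases, and 31.3% of its 100-base stretches also occur in a transcript of another gene. The library kit keeps the strand, but whether the counting used it is not given in the sources used here, so its level is uncertain by reads that could belong to Myef2. Dct shared 0.483% and Pmel 0.274% of their 100-base stretches with other genes, and the other 7 members shared 0. Tyr, Tyrp1 and Dct, which are paralogs, shared no such stretch with one another.

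Gpr143 and Mlph were the lowest members apart from Oca2. Gpr143 encodes OA1, a receptor in the melanosome membrane that limits melanosome size, and had 39.3 CPM, or 19.7 CPM per kb. Mlph encodes melanophilin, the adaptor that links RAB27A on the melanosome to the motor myosin Va, and had 156 CPM, or 29.1 CPM per kb. Neighbours in the order from Slc24a5 down to Gpr143 differed by 1.46-fold to 1.93-fold per kb. Without division by length Tyr lay above Slc24a5, and Mlph was 3.96-fold above Gpr143. Without the spread between samples it cannot be said which of these neighbours differ.

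The partners of Mlph had higher average levels than Mlph itself, with the spread between samples unknown. Rab27a had 6.17 and Myo5a 6.33 on the log2 CPM per kb scale, against 4.86 for Mlph, which is 2.48-fold and 2.77-fold more. Myo5a was 5.40-fold above Mlph with the transcript of the longest coding sequence, and 7.65-fold without division by length. For Rab27a these folds were 2.55 and 1.79. Rab27b, the close relative of Rab27a, was at -4.73 and below 1 CPM. The 6 genes listed for melanosome movement had a median of 5.61, with Rab1a highest at 6.82.

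**Figure D4:**
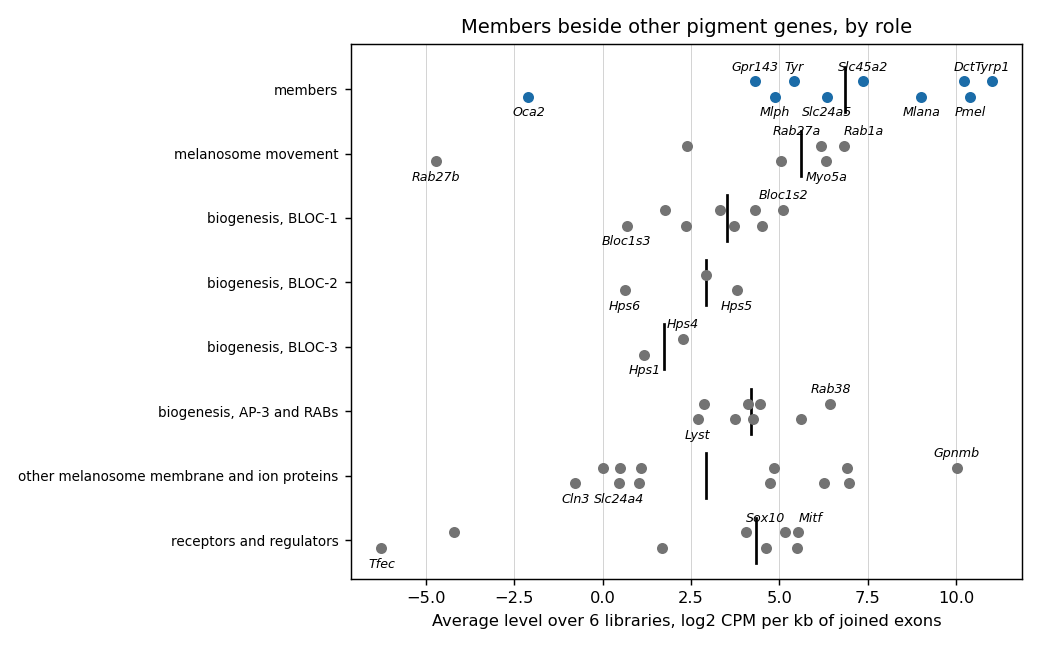
Average level over 6 libraries in log2 CPM per kb (horizontal axis) of the 10 members (blue) and of 47 other pigment genes (grey) by role, with black lines at the median of each row; points are set above and below the line of a row only to part them. The member median (6.86) lies to the right of every other row's median, Gpnmb (10.02) lies among the leading members, and Oca2 lies to the left of all genes in the 4 biogenesis rows.

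In the wider pigment list of 47 genes, 44 were at or above 1 CPM and the median was 3.80 on the log2 CPM per kb scale. The 8 genes of BLOC-1, a complex that sorts cargo to the young melanosome, ran from 0.68 (Bloc1s3) to 5.11 (Bloc1s2). The 3 genes of BLOC-2 ran from 0.62 (Hps6) to 3.80 (Hps5), and Hps1 (1.18) and Hps4 (2.27) make up BLOC-3. In the group of AP-3 subunits, RABs and other trafficking genes, Rab38, which brings tyrosinase to the melanosome, was highest at 6.44 and Lyst lowest at 2.69. These sorting genes lay below Slc45a2, Mlana, Pmel, Dct and Tyrp1 without exception, and all of them lay above Oca2.

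Other proteins of the melanosome membrane were led by Gpnmb, a relative of Pmel, at 10.02, and Pmel was 1.29-fold above it per kb. The order turned with the longest transcripts, where Pmel had 0.788 of the level of Gpnmb, and by CPM, where it had 0.454. Slc24a4, an exchanger of the same family as Slc24a5, was at 0.45, so that Slc24a5 was 59.7-fold higher (30.8-fold by CPM). Cln3 was the lowest of these 12 genes at -0.77. Among receptors and regulators, Mitf was at 5.54 and Sox10 at 5.15, against 5.41 for Tyr, which by CPM was 2.78-fold above Sox10. Mc1r, the receptor for melanocyte-stimulating hormone, was at 4.07. Tfec, a relative of Mitf, was lowest at -6.26.

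The label of the cells was checked against marker genes. Of 10 markers of the melanocyte lineage, 5 of them members of the list described here, 9 were above 1 CPM, and Ednrb, an endothelin receptor of melanoblasts, was at 0.231 CPM. All 6 keratinocyte markers were below 1 CPM, and Krt5 and Dsg3 had no reads. Trp63 was the highest of them at 0.0553 CPM, where the reads added by voom alone give 0.0255 CPM. Of the 5 fibroblast markers 3 reached 1 CPM (Pdgfra 3.28, Col1a1 1.70 and Col1a2 1.15 CPM), and the 5 summed to 6.50 CPM. Of the 6 leukocyte markers 1 did (Lyz2, 1.78 CPM), with a sum of 2.35 CPM. Of the 4 endothelial markers 2 did (Vwf, 1.92 CPM, and Pecam1, 1.21 CPM and highest per kb), with a sum of 3.68 CPM. In a bulk sample, few cells of a type and little RNA per cell cannot be told apart.

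**Figure D5:**
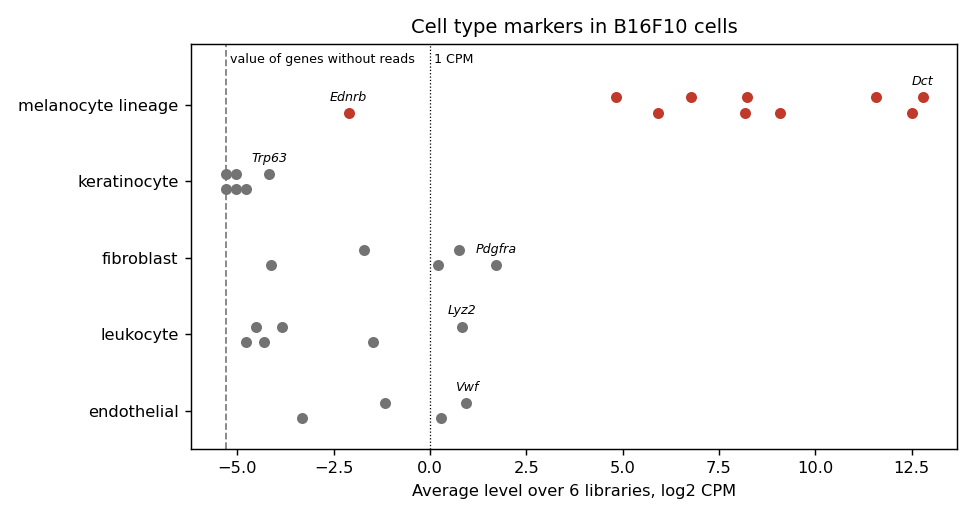
Average log2 CPM over 6 libraries (horizontal axis) of marker genes by cell type, with the value of genes without reads (dashed) and 1 CPM (dotted). Of the melanocyte markers, 9 of 10 lie at or above 4.83, whereas no marker of the 4 other cell types exceeds 1.71.

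The 10 genes lie on 9 chromosomes. Positions are those of GENCODE M21 on GRCm38, in which all 10 are protein-coding. Oca2 (chr7:56239760-56536518) and Tyr (chr7:87424771-87493512) share chromosome 7. Tyrp1 lies at chr4:80834123-80851719, Dct at chr14:118012790-118052244, Pmel at chr10:128704195-128720238 and Mlana at chr19:29697824-29708634. Slc45a2 lies at chr15:11000721-11029233, Slc24a5 at chr2:125068124-125088677, Gpr143 at chrX:152781921-152808646 and Mlph at chr1:90915085-90951142. Their coding sequences run from 113 residues in Mlana to 833 in Oca2, and those of the related enzymes are alike in length, with 533 in Tyr, 537 in Tyrp1 and 517 in Dct. The gene with the lowest level, Oca2, also has the longest span (297 kb, 24 exons in its coding transcript), and the shortest, Mlana (10.8 kb, 5 exons), ranked 4 among the 10, a description over 10 genes without a test.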

How the data were processed

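RNA of B16F10 cells was sequenced as 2 groups of 3 libraries (OLO and OZO). Per the study's methods, read pairs were aligned to mm10 with HISAT2 (2.1.0), and for the comparison of groups the authors used featureCounts (2.1.1) and limma-voom (3.58.1). Settings for strand and scaling are not given in the sources used here. The deposited table holds 1 row per gene. The column used here is the authors' mean log2 CPM over the 6 libraries, with 0.5 reads added to each count, as voom does and as the steps of the low values show. The other columns hold the authors' own comparison of the groups (fold changes, statistics and p-values) and were not used, so the planned test of OZO against OLO was replaced by a description of levels.

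CPM was computed as 2 to the power of the mean, and divided by the joined exon length from GENCODE M21, in which 23882 of 24126 Ensembl identifiers were found. Reads per library are CPM times the scaled library size, so they are geometric means that include the 0.5 added reads. Under 1 such read, 99.6% of 3346 genes matched whole reads within 1e-06 log2 units summed over libraries. Shared stretches of 100 bases and motifs were counted in GENCODE transcripts and RefSeq promoter windows. The code of the depth calculation was run on counts simulated under the same voom formula. Such a run cannot show that the deposited averages follow that formula. The members and lists were chosen with earlier results of these data known. Named genes were the members, their direct partners, relatives (Slc24a4, Gpnmb) and regulators, the highest and lowest gene of each role and the highest marker; Mc1r, Ednrb, Krt5, Dsg3, Col1a1 and Col1a2 were named after their values were seen. Alternatives were other lengths and other sets of ranked genes. Python 3.11.15, numpy 2.4.6, pandas 2.3.3, scipy 1.17.1 and matplotlib 3.10.9 were used.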

Additional observations from a re-analysis of the deposited data

How the results depend on the processing

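No paired analysis was possible because only 1 average over both groups was used for each gene. DESeq2, the test without a filter on low counts, a replicate block, leaving out each sample and another pseudocount each need the value of every library and were not run, and no spread stands beside any level. The level of a member was higher than that of 98.5% of genes at the median of the 10. This was 98.0% with the longest transcript as length and 98.0% (97.98) without division by length. It was 97.2% with the longest coding transcript, which also reduced the ranked genes from 19227 to 17581, and 99.1% without Oca2, 2 choices made after seeing the data. It was 98.4% among protein-coding genes. Among genes of at least 1 CPM Oca2 drops out, and the median of the other 9 was 98.5%, against 99.1% for the same 9 among all genes with reads. Across the 3 lengths, no division by length and both other ranked sets, 4 to 5 members were in the top 1%, 6 in the top 5% and 7 to 8 in the top 10%. The 6 were not the same genes: without division by length Slc24a5 was above 94.2% of genes in place of 97.9%, and Tyr above 97.1% in place of 94.7%. The longest transcript, no division by length and both other ranked sets gave 39 values of single members. Of these, 25 moved beyond the binomial (Wilson) interval of the main share at a confidence level of 0.95. That interval treats the ranked genes as independent draws and holds no error of read counts and no spread between libraries. In all, 33 values were lower. The 9 among genes of at least 1 CPM had to be, since that set leaves out low genes. Gpr143 moved most, from above 86.7% of genes to 72.8% without division by length. The order changed for 2, 3 and 5 members with the longest transcript, the longest coding transcript and no division by length.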
